A study of Mus musculus with 6 samples.

Results

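Mitochondrial ribosomal proteins were followed in 2 blood-forming populations of Bmi1 KO and wild-type mice. The genes were found by name: every probe that was not a control and whose gene name read Mrpl or Mrps, a number and at most 1 further letter was taken. The set was thus chosen by gene name, and the KO over WT ratios of Mrpl3, among the most even of these arrays, were known when it was selected. That rule found 76 genes on 106 probes, of 35019 gene names on 55681 probes in all. All 76 genes could be measured. 105 of the 106 probes were kept, and a second Mrps25 probe had no usable value on 1 array. Names such as Chchd1, Dap3 or Ptcd3 do not match the rule, and these genes are given apart below. Some genes that match it belong elsewhere by present knowledge: Mrps30 and Mrps18a encode large-subunit proteins despite their names, and Mrps36 encodes a protein now placed with the 2-oxoglutarate dehydrogenase complex. Those 3 genes were kept because the rule names them.

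RNA came from Bmi1 KO MPPs (multipotent progenitors), Bmi1 KO HSCs (hematopoietic stem cells), wild-type (WT) MPPs and WT HSCs, with 3 samples in each of the 4 groups. All mice were of the C57BL6 background and 2 to 3 months old, and the cells were sorted by FACS. Bmi1 encodes a Polycomb protein needed for the upkeep of HSCs, and the labels do not say which allele was used. Each of 6 dual-colour oligonucleotide arrays held 1 KO sample in red (Cy5) and the WT sample of the same population in green (Cy3). The dyes were never exchanged, so genotype and dye cannot be told apart in a KO over WT ratio. The labels call the replicates biological but do not say how many mice gave each sample.

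The mitochondrial ribosome translates the few messages of the mitochondrial genome, all of them for subunits of the respiratory chain and of ATP synthase. Its RNA comes from the mitochondrial genome, whereas all of its proteins are encoded in the nucleus, made in the cytosol and imported. Part of these proteins have counterparts in bacterial ribosomes and others arose later in mitochondria. HSCs are known for low mitochondrial activity and a low rate of protein synthesis, and MPPs for a higher metabolic rate.

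The promoters of 4 members described below are printed first: Mrpl3 for its KO over WT ratios, and Mrps12, Mrps21 and Mrps9 for their difference between MPPs and HSCs. Each runs 5′ to 3′ on the gene's strand, from 250 bases before the annotated start to 30 bases after it (RefSeq, GRCm38.p6). Capitals mark matches to the core motifs of NRF1 (GCGCA, any base, then GCGC) or ETS factors (CCGGAAG), both of which are textbook elements of nuclear genes for mitochondrial proteins. Mrpl3 lies at chr9:105053018-105053297 on the plus strand, Mrps12 at chr7:28741792-28742071 on the minus strand, Mrps21 at chr3:95871485-95871764 on the minus strand and Mrps9 at chr1:42850983-42851262 on the plus strand.
Mrpl3: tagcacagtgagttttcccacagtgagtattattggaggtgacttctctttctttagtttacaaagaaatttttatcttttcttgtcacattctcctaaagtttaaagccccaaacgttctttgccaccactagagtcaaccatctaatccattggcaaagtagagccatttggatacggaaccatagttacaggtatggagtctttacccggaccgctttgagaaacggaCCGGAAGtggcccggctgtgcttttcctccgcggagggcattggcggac
Mrps12: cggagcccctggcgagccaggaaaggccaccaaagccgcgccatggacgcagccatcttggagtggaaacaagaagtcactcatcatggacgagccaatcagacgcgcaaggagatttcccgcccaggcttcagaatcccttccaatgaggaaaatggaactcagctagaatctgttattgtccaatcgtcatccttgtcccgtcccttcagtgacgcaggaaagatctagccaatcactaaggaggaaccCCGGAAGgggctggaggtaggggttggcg
Mrps21: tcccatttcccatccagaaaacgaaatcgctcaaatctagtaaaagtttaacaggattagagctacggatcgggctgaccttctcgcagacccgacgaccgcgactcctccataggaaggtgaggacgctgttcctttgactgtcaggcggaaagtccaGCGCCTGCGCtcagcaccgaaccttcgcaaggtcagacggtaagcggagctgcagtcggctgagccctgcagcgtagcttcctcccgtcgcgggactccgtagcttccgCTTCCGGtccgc
Mrps9: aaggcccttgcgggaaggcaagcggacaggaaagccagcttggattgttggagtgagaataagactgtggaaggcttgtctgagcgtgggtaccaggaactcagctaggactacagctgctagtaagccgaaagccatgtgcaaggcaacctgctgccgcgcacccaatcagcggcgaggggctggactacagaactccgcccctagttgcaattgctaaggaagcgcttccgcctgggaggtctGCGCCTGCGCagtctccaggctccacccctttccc

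Mrpl3 held an ETS match that began 19 bases before the start. In Mrps12 the ETS match began at base 2 of the transcript, in Mrps21 at base 19, on the other strand. Mrps21 also had an NRF1 match 91 bases before the start, and Mrps9 one 5 bases before it, both on the other strand. Of the 76 members, 67 were matched to the promoter table, with 50 bases after the start searched on both strands. 12 of the 67 (17.9%) held the NRF1 core in a window of 300 bases, against 5.19% of all 27025 genes in the table. The ETS core stood in 24 members (35.8%), against 9.93% of all genes. The E-box bound by Myc (CACGTG) stood in 5 members (7.46%), against 8.09% of all genes. All genes were not limited to those with signal on these arrays, which every member had. No set of genes of like brightness was counted. No match of 1 motif overlapped a match of another in these windows, and the 3 motifs were chosen after results of these arrays were known.

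Across the 6 arrays, the median mean-spot intensity was 379 to 581 in red and 124 to 206 in green, and 78.8% to 83.9% of red spots and 72.5% to 82.2% of green spots were well above background. The KO over WT ratios of replicate arrays correlated weakly over all features, with Pearson's r from -0.014 to 0.219 among MPP arrays and from -0.076 to 0.086 among HSC arrays. The brighter Bmi1 probe had log2 KO over WT ratios of 0.23, -0.69 and 0.48 in MPPs and -0.39, -2.42 and -0.50 in HSCs. Its other probe gave 0.93, 0.70 and -0.05 in MPPs and 0.11, -1.66 and 1.36 in HSCs. Since no label describes the deletion, these probes do not check the genotype labels. The sorted populations did differ in their markers: Flt3, a receptor of MPPs, rose in MPPs over HSCs by 2.92 on the log2 scale in KO samples (limma, adjusted p = 0.0145) and by 3.03 in WT samples (adjusted p = 0.023). Its size held from 2.29 to 3.13 in KO samples and from 2.61 to 3.44 in WT samples under all 13 alternatives. Both calls were lost with the slide row (adjusted p = 0.209 and 0.319), with the replicate block (0.0769 and 0.178) and without HSC replicate 1 or any 1 MPP array (0.0557 to 0.0824 and 0.0586 to 0.12), and the WT call also without HSC replicate 2 (0.0626). Of 9 HSC markers, 1 stood higher in MPPs in KO samples and 0 in WT samples. Positions on the slide were read here from the last 2 numbers of each array's deposited name, taken as row and column. The sample labels do not give them. By that reading, row 1 carried the 3 HSC samples and MPP replicate 1, and row 2 the other MPP arrays. Row and population were thus partly confounded.

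Levels below are log2 signals, quantile-normalized over the 6 samples of a dye. A level in the KO samples and one in the WT samples thus lie on different scales, and different probes have different scales too. The members were bright: the median member lay above the median of all 29134 features in each of the 12 samples. Signal was well above background on all 3 arrays for 76 of 76 members in KO MPPs, 69 in KO HSCs, 71 in WT MPPs and 68 in WT HSCs. For 15 members it was so on 1 or 2 arrays only of some group, among them Mrpl3, Mrpl36, Mrpl44 and Mrps21. 2 members, Mrps18c and Mrps22, passed the filter only through the MPP groups. Both were higher in MPPs in both genotypes, a direction the filter favoured, and both stay in the counts below. No member spot was saturated.

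Genes for mitochondrial ribosomal proteins stood higher in MPPs than in HSCs in both genotypes, as a group and not gene by gene: most members pointed the same way, and no single member passed the test. In KO samples 58 of 76 members (76.3%) were higher in MPPs, against 43% of all features. In WT samples 60 of 76 (78.9%) were, against 43.7% of all features. The median difference over the members was 0.56 on the log2 scale in KO samples and 0.79 in WT samples, while the median of all features was -0.09 in both. Both directions held under median scaling in place of quantile normalization, with member medians of 0.67 in KO samples and 1.17 in WT samples. In these bulk samples, more RNA of a gene per cell and more cells with that RNA cannot be told apart.

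The shift was visible sample by sample. The median level of the 76 members was 11.83, 11.73 and 12.04 in KO MPPs, against 10.96, 11.32 and 11.65 in KO HSCs. It was 10.37, 10.44 and 10.61 in WT MPPs, against 10.10, 9.33 and 9.95 in WT HSCs. The 3 MPP samples lay above the 3 HSC samples in either genotype, with no overlap, and the HSC samples were the more scattered. The median of all features was within 10.05 to 10.08 in every KO sample and within 8.65 to 8.70 in every WT sample. Within row 1 of the slide, where MPP replicate 1 can be set against the 3 HSC arrays, 60 members were higher in the MPP sample in the KO channel (median 0.50) and 61 in the WT channel (median 0.92), against 41.3% and 40.3% of all features. That comparison has 1 MPP array and no test.

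**Figure D1:**
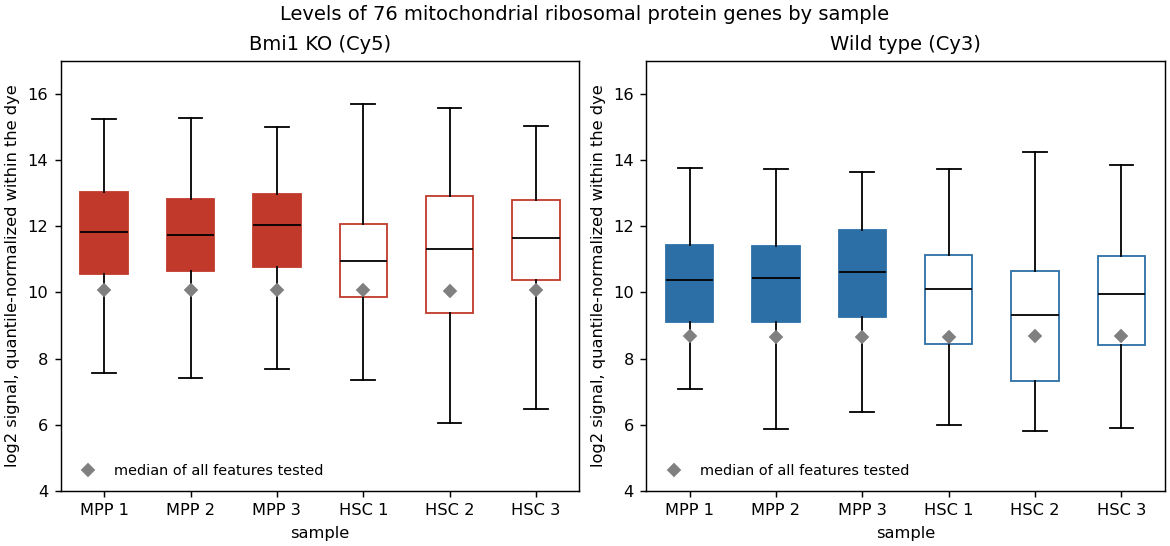
Levels of the 76 genes in each sample, as log2 signal, in Bmi1 KO samples (left panel) and wild-type samples (right panel). Boxes hold the middle of the genes with the median as a line, whiskers run from the lowest to the highest gene, filled boxes are MPPs and open boxes HSCs, and grey diamonds are the medians of all features. The member medians of the MPP samples (11.73 to 12.04 in KO, 10.37 to 10.61 in WT) lie above those of the HSC samples (10.96 to 11.65 in KO, 9.33 to 10.10 in WT).

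Gene by gene the test was limma's moderated test over all 29134 features with Benjamini-Hochberg adjustment and a threshold of 0.05. In KO samples 0 members passed, where 0.525% of all features did, and the smallest adjusted p of a member was 0.21. In WT samples 0 members passed, where 0.419% of all features did, and the smallest adjusted p of a member was 0.113. At an unadjusted p under 0.05, 11 members were higher in MPPs and 0 lower in KO samples, where 6.52% of all features were higher and 5.53% lower. In WT samples 17 members were higher and 2 lower at that level, where 6.77% of all features were higher and 8.4% lower. The KO levels of the 3 MPP samples lay wholly above those of the 3 HSC samples for 15 members (8.62% of all features) and wholly below for 0 (11.1%). In WT samples the groups were apart for 20 members with MPPs higher (8.25% of all features) and for 2 with MPPs lower (13.8%).

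Bright genes were somewhat more often higher in MPPs, and the members are bright, so the same counts were taken in 4 equal bins of brightness. In the brightest bin 23 of 31 members were higher in KO MPPs than in KO HSCs, against 47.9% of the features of that bin, and 27 of 31 in WT MPPs, against 52.7%. In the next bin 23 of 29 members were higher in KO MPPs, against 45.1%, and 24 of 29 in WT MPPs, against 44.9%. The dimmer bins held fewer members: 9 of 12 were higher in KO MPPs and 7 of 12 in WT MPPs in the second dimmest bin (40.8% and 38.7% of its features), and 3 of 4 and 2 of 4 in the dimmest (38.1% and 38.3%). The division by brightness was added after the levels had been seen.

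By direction, 46 members were higher in MPPs in both genotypes, 12 in KO but not WT samples, 14 in WT but not KO samples, and 4 (Mrpl4, Mrpl41, Mrpl48 and Mrps10) were lower in MPPs in both. The KO and WT samples of an array share its surface but not their RNA. 5 members had MPP and HSC samples that did not overlap in either genotype, all with MPPs higher (2.69% of all features): Mrps12, Mrps21, Mrps18c, Mrps25 and Mrpl9. Mrps18c passed the filter through the MPP groups alone, so the filter favoured its direction. The count of 5 includes Mrps18c, which supports nothing here.

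**Figure D2:**
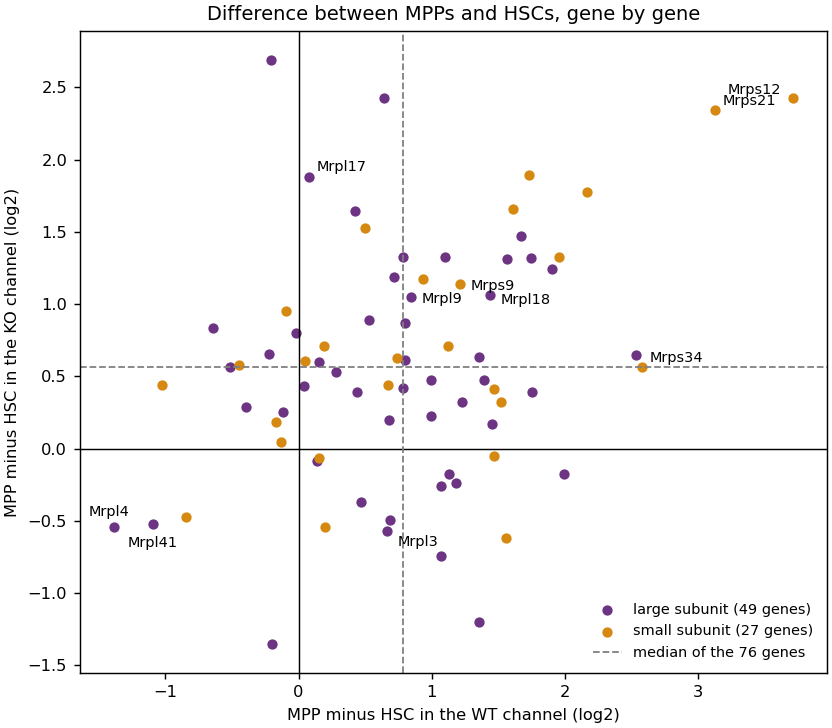
Difference between MPPs and HSCs for each of the 76 genes, in WT samples (horizontal axis, log2) and in KO samples (vertical axis, log2). Purple points are large-subunit genes and orange points small-subunit genes, and dashed lines mark the medians of the 76 genes (0.79 in WT, 0.56 in KO). Most points (46) lie in the upper right field, with Mrps12 and Mrps21 far out and Mrpl4 and Mrpl41 in the lower left.

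Among small-subunit genes, Mrps12 had the largest difference of any member in WT samples. It encodes the counterpart of bacterial S12, a protein of the decoding centre. Its probe lies at chr7:29524837-29524896 (mm9, minus strand). Mrps12 had levels of 11.53, 11.89 and 12.15 in KO MPPs, against 8.02, 9.59 and 10.68 in KO HSCs. It had 10.86, 10.36 and 12.29 in WT MPPs, against 7.10, 6.81 and 8.45 in WT HSCs. Every MPP sample was above every HSC sample of its genotype. The difference for Mrps12 was 2.43 (SE 0.65, limma adjusted p = 0.231) in KO samples and 3.71 (SE 0.65, adjusted p = 0.113) in WT samples (13.1-fold). Its WT HSC levels were above background on all 3 arrays but below the median of all features there (8.66 to 8.68). The size of the WT difference is therefore uncertain.

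Mrps21 encodes the counterpart of bacterial S21, and its probe lies at chr3:95666577-95666636 (mm9, minus strand). Mrps21 had levels of 11.10, 11.37 and 11.96 in KO MPPs, against 10.36, 6.55 and 10.49 in KO HSCs, where 2 of 3 arrays were above background. It had 8.41, 10.04 and 10.95 in WT MPPs, against 7.10, 6.39 and 6.52 in WT HSCs. The groups did not overlap, and in KO HSCs replicate 2 stood far below the other samples. The difference for Mrps21 was 2.34 (SE 1.04, adjusted p = 0.436) in KO samples and 3.13 (SE 0.65, adjusted p = 0.168) in WT samples. Here too the WT HSC levels were below the median of all features, so the size is uncertain.

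Mrps34 encodes a small-subunit protein with no bacterial counterpart. It had levels of 10.54, 10.46 and 10.25 in KO MPPs, against 9.50, 9.39 and 10.68 in KO HSCs. It had 9.10, 11.37 and 10.54 in WT MPPs, against 7.57, 8.03 and 7.65 in WT HSCs. The WT groups were well apart, while in KO samples HSC replicate 3 was above all MPP samples. Its difference was 0.56 (SE 0.39, adjusted p = 0.583) in KO samples and 2.58 (SE 0.58, adjusted p = 0.196) in WT samples.

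Mrps9, the counterpart of bacterial S9, gave the smallest p of any member in KO samples. It had 13.29, 13.10 and 12.87 in KO MPPs, against 12.11, 11.52 and 12.20 in KO HSCs. It had 11.32, 11.38 and 11.04 in WT MPPs, against 10.62, 8.16 and 11.31 in WT HSCs. The KO groups were apart and the WT groups overlapped, since WT HSC replicate 3 reached the MPP values. The difference for Mrps9 was 1.14 (SE 0.29, adjusted p = 0.21) in KO samples and 1.21 (SE 0.79, adjusted p = 0.491) in WT samples.

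Mrps25, a further small-subunit gene, was apart in both genotypes. Mrps25 had 12.23, 12.10 and 12.23 in KO MPPs, against 10.94, 11.85 and 11.64 in KO HSCs, and 11.07, 11.17 and 11.20 in WT MPPs, against 10.27, 10.48 and 9.30 in WT HSCs. Its MPP samples hardly differed from each other.

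Among large-subunit genes, Mrpl18 and Mrpl9 were higher in MPPs in both genotypes. Mrpl18, the counterpart of bacterial L18, had levels of 13.40, 12.64 and 13.32 in KO MPPs, against 11.79, 11.49 and 12.89 in KO HSCs. It had 11.73, 11.80 and 11.54 in WT MPPs, against 10.92, 10.21 and 9.63 in WT HSCs. The WT groups were apart, and in KO samples HSC replicate 3 lay above MPP replicate 2. The difference for Mrpl18 was 1.06 (SE 0.44, adjusted p = 0.409) in KO samples and 1.44 (SE 0.37, adjusted p = 0.231) in WT samples.

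Mrpl9, the counterpart of bacterial L9, had 12.64, 12.49 and 13.43 in KO MPPs, against 11.85, 11.65 and 11.92 in KO HSCs. It had 11.06, 11.05 and 10.64 in WT MPPs, against 9.60, 10.52 and 10.09 in WT HSCs. Its difference was 1.05 (SE 0.32, adjusted p = 0.289) in KO samples and 0.84 (SE 0.32, adjusted p = 0.311) in WT samples. A second, dimmer Mrpl9 probe gave -0.09 and -0.35, so the direction depends on the probe.

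Mrpl17, the counterpart of bacterial L17, differed between the populations in KO samples and hardly in WT samples. It had 11.52, 11.49 and 11.36 in KO MPPs, against 10.99, 8.99 and 8.74 in KO HSCs. It had 8.79, 9.63 and 9.04 in WT MPPs, against 9.32, 8.09 and 9.80 in WT HSCs. The KO groups were apart and the WT groups lay through each other. The difference for Mrpl17 was 1.88 (SE 0.59, adjusted p = 0.306) in KO samples and 0.08 (SE 0.50, adjusted p = 0.955) in WT samples. Without HSC replicate 1 the KO difference was 2.59 and passed the test (adjusted p = 0.033).

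The opposite direction was seen in Mrpl4, whose bacterial counterpart L4 lines the exit tunnel, and in Mrpl41, which has no bacterial counterpart. Mrpl4 had levels of 11.32, 11.83 and 11.98 in KO MPPs, against 12.66, 12.60 and 11.50 in KO HSCs. It had 11.00, 9.85 and 10.00 in WT MPPs, against 11.42, 11.85 and 11.74 in WT HSCs. The WT groups were apart and the KO groups overlapped. The difference for Mrpl4 was -0.54 (SE 0.39, adjusted p = 0.6) in KO samples and -1.39 (SE 0.37, adjusted p = 0.243) in WT samples, and its other probe gave 0.40 and -1.12. For Mrpl41 the difference was -0.52 (SE 0.52, adjusted p = 0.698) in KO samples and -1.10 (SE 0.45, adjusted p = 0.329) in WT samples, and its other probe gave 2.03 and -0.21.

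**Figure D3:**
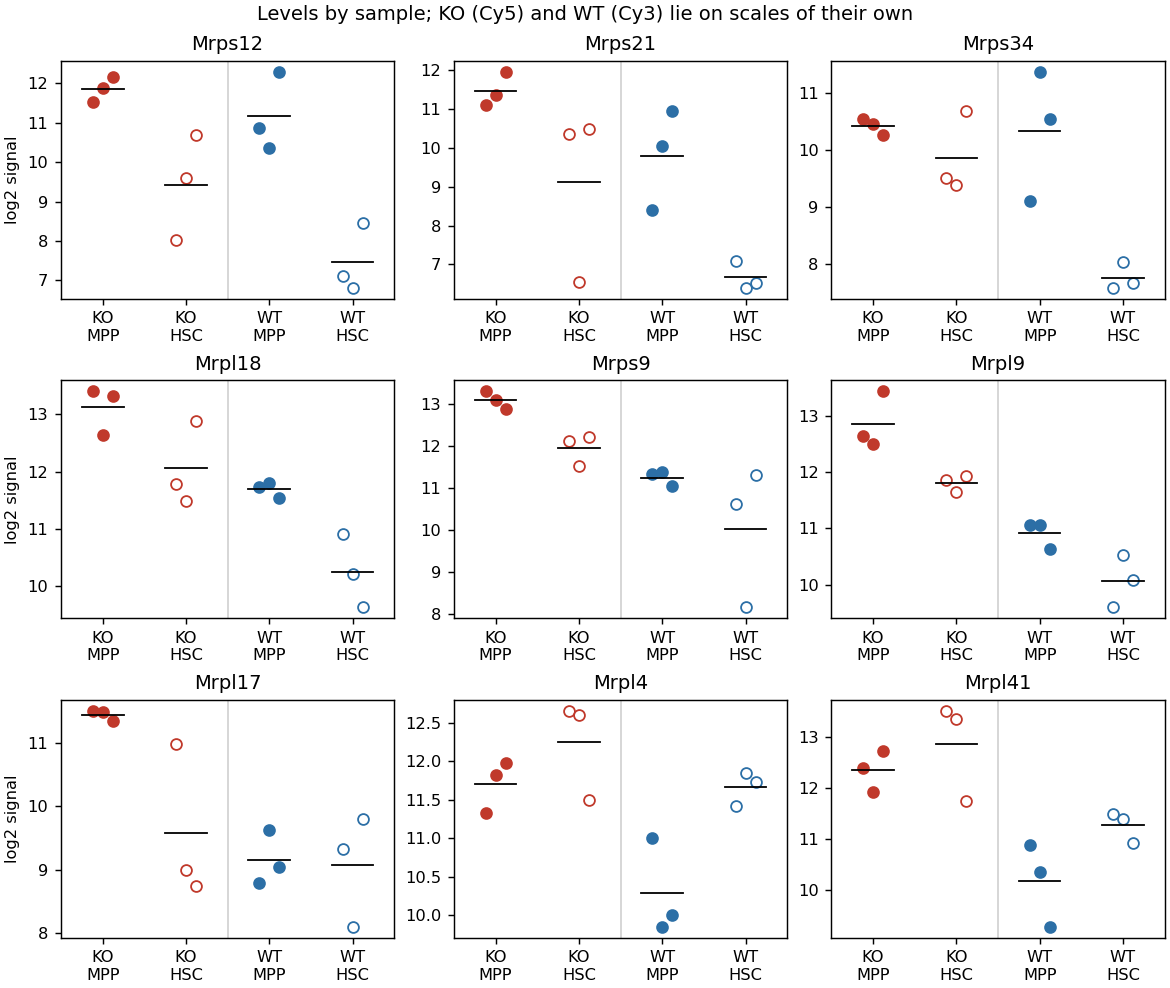
Log2 levels of 9 members by sample, with KO MPPs, KO HSCs, WT MPPs and WT HSCs from left to right in each panel. Filled points are MPP samples, open points HSC samples, red is KO and blue WT, and black lines are means of 3 samples. Mrps12 and Mrps21 have MPP samples above all HSC samples in both genotypes, whereas WT samples of Mrpl4 and Mrpl41 show the opposite order.

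Disagreement between probes was common. Of the 25 members with several kept probes, 13 had probes of both signs for the difference between KO MPPs and KO HSCs and 10 for that between WT MPPs and WT HSCs. When the probes of a gene were averaged, the member median was 0.48 in KO samples and 0.71 in WT samples.

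The shift was spread over both subunits. Of 30 large-subunit genes with a bacterial counterpart, 23 were higher in MPPs in KO samples (median 0.62) and 25 in WT samples (median 0.65). Of 19 large-subunit genes without one, 13 were higher in KO samples (median 0.39) and 14 in WT samples (median 0.99). Of 16 small-subunit genes with a bacterial counterpart, 12 were higher in KO samples (median 0.51) and 12 in WT samples (median 1.07). Of 11 small-subunit genes without one, 10 were higher in KO samples (median 0.62) and 9 in WT samples (median 0.74). Without Mrps36, which the name puts there, 9 of 10 were higher in KO samples (median 0.66) and 8 of 10 in WT samples (median 0.66). No class was tested against another.

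Other genes of mitochondrial gene expression were listed alongside. Of 8 mitoribosome proteins that the name rule misses, 6 were higher in MPPs in KO samples (median 0.43) and 7 in WT samples (median 0.42). Chchd1, a small-subunit protein, rose in KO MPPs: its levels were 12.07, 12.56 and 12.47 in KO MPPs, against 10.60, 10.26 and 10.06 in KO HSCs. The difference for Chchd1 was 2.06 (SE 0.27, limma adjusted p = 0.0382) in KO samples and 1.95 (SE 0.52, adjusted p = 0.243) in WT samples, and the KO call was lost without any 1 of the 6 arrays (adjusted p = 0.0658 to 0.194).

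Of 14 mitochondrial translation factors, 10 were higher in MPPs in KO samples (median 0.61) and 12 in WT samples (median 0.85). Of 20 measured assembly factors, 11 were higher in KO samples (median 0.04) and 15 in WT samples (median 0.63). Of 17 mitochondrial aminoacyl-tRNA synthetases, 12 were higher in KO samples (median 0.50) and 8 in WT samples (median -0.04). Of 10 measured genes of mitochondrial transcription and genome maintenance, 8 were higher in KO samples (median 0.89) and 10 in WT samples (median 1.02). None of these 4 lists was set against the members in a test.

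Polg2, the accessory subunit of the mitochondrial DNA polymerase, was the member of these lists that passed in WT samples. It had levels of 10.37, 10.26 and 9.88 in WT MPPs, against 7.16, 5.87 and 6.04 in WT HSCs. The difference for Polg2 was 1.01 (SE 0.64, adjusted p = 0.554) in KO samples and 3.81 (SE 0.40, adjusted p = 0.0296) in WT samples. WT HSC replicates 2 and 3 lay near the low end of the signal, so the size of the WT difference is uncertain. Under the 13 alternatives it ranged from 2.95 to 6.43. The WT call was lost without any 1 of the 6 arrays (adjusted p = 0.0531 to 0.135).

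**Figure D4:**
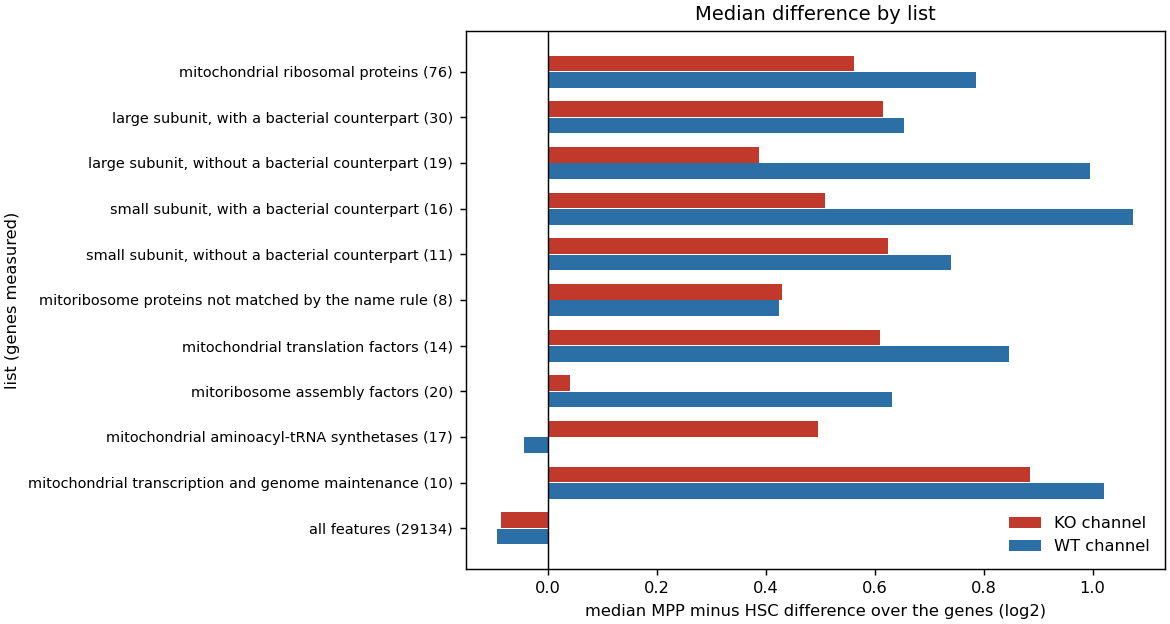
Median difference between MPPs and HSCs (log2) over the genes of each list, in the KO channel (red) and the WT channel (blue), with the number of genes measured in brackets. The members and their 4 subunit classes have medians of 0.39 to 1.07 in both channels, and all features have -0.09 in both.

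Members often share their start region with a neighbour. For 25 of 67 (37.3%), a gene on the other strand started within 1000 bases upstream, against 12.2% of all genes. All genes were again not limited to those with signal on these arrays. Mrps12 and Sars2, the mitochondrial seryl-tRNA synthetase, start 147 bases apart, and Mrpl43 and Twnk, the mitochondrial DNA helicase, 116 bases apart. Mrpl46 and Mrps11, both members, start 42 bases apart. Over 22 measured partners that are not members, 14 were higher in MPPs in KO samples (median 0.25) and 17 in WT samples (median 0.55). Of all features, 43% and 43.7% were higher. The partner had the same sign as its member in 11 of the 22 pairs in KO samples and in 17 in WT samples. Pearson's r between the differences of member and partner was 0.094 in KO samples and 0.307 in WT samples. Sars2 had a difference of 1.28 in KO samples and -0.19 in WT samples, beside 2.43 and 3.71 for Mrps12. The neighbours were looked up after the levels had been seen.

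Marker genes of other cell types differed between the samples too. The median level of 7 B lineage markers was 11.31, 13.71 and 14.54 in KO MPPs, against 7.59, 8.17 and 9.27 in KO HSCs, with 7 of 7 markers higher. It was 7.23, 7.69 and 8.90 in WT MPPs, against 6.80, 6.67 and 7.11 in WT HSCs, with 6 of 7 higher. Beside the members' median differences of 0.56 in KO samples and 0.79 in WT samples, the B lineage markers had medians of 4.47 and 0.44. Neutrophil and monocyte markers were higher in MPPs for 5 of 6 in KO samples (median 2.26) and 4 of 6 in WT samples (median 0.25). Replicate 3 of both populations stood apart in these markers and was the highest in each of the 4 groups. The neutrophil and monocyte median level was 11.72, 11.46 and 13.07 in KO MPPs, against 8.71, 10.01 and 12.83 in KO HSCs. In WT MPPs it was 9.77, 9.22 and 12.74, against 7.03, 7.19 and 12.98 in WT HSCs. Erythroid markers were higher in MPPs for 4 of 5 in KO samples (median 1.85) and 0 of 5 in WT samples (median -0.21), and T and NK markers for 1 of 6 (median -0.38) and 2 of 6 (median -0.32). Megakaryocyte markers were lower in MPPs, 0 of 4 higher in either genotype. The part of these markers in the members' differences was not tested.

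The second comparison set KO against WT within each array. The ratios of Mrpl3 were known when these genes were chosen, so the KO over WT values of the members are given as a description, with no p-value. Over all features, limma called 0 (0%) in MPPs, in HSCs, in the mean of both and in the difference between them. At an unadjusted p under 0.05, 2.49% of all features were higher in KO and 2.62% lower in MPPs, and 3.95% were higher and 3.45% lower in HSCs. For the mean of both populations 4.49% were higher and 3.88% lower, and for the difference between them 1.69% and 2.35%. No such count is given for the members.

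Mrpl3 encodes the counterpart of bacterial L3, a protein next to the peptidyl transferase centre. Its probe (chr9:104979701-104979760, mm9, plus strand) gave log2 KO over WT ratios of 0.76, 1.03 and 0.29 in MPPs and 1.76, 2.24 and 1.91 in HSCs. All 6 ratios were above 0, and the HSC arrays lay above the MPP arrays with no overlap. Mrpl3 had a mean ratio of 0.70 ± 0.37 (SD, n = 3) in MPPs and 1.97 ± 0.25 (SD, n = 3) in HSCs. The sizes depend on the processing: the scanner's own log ratio gave means of 1.85 in MPPs and 4.69 in HSCs.

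Mrpl3 was dim in the WT channel: it was well above background on 2 of 3 arrays in WT MPPs and on 1 of 3 in WT HSCs, but on every KO array. Its KO levels were 9.27, 8.07 and 8.60 in MPPs, against 9.40, 9.31 and 8.94 in HSCs. Its WT levels were 7.16, 5.88 and 7.04 in MPPs, against 6.37, 5.82 and 5.89 in HSCs. The populations overlapped in both genotypes. The difference between MPPs and HSCs for Mrpl3 was -0.57 (SE 0.36, adjusted p = 0.551) in KO samples and 0.67 (SE 0.41, adjusted p = 0.468) in WT samples. With the slide row as a term the KO difference was 0.05, so its direction is not settled.

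As a group the members had no common direction between KO and WT in MPPs. 38 of 76 had a mean ratio above 0, against 50.7% of all features, and the median was 0.00. The array medians were 0.10, 0.16 and -0.33. All 3 arrays pointed up for 13 members (14.8% of all features) and down for 12 (14.2%). Under median centring in place of loess, which moved the median of all features by 0.25, the member median was 0.34 and 53 of 76 ratios were above 0.

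In HSCs 48 of 76 members had a mean ratio above 0, against 50.2% of all features, and the median was 0.40. The array medians were -0.07, 0.04 and 0.55, so HSC replicate 3 was apart from the others. Without it the member median was 0.11, without HSC replicate 2 it was 0.21 and without HSC replicate 1 it was 0.63. All 3 arrays pointed up for 13 members (13.3% of all features) and down for 6 (13.6%). Under median centring, which moved all features by 0.29, the member median was 0.73 and 58 of 76 ratios were above 0.

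Besides Mrpl3, 3 members had a ratio above 0 on all 6 arrays (3.26% of all features): Mrps36, Mrpl44 and Mrps30. Mrps36 had ratios of 0.16, 2.12 and 1.30 in MPPs and 0.14, 2.08 and 1.62 in HSCs. Mrpl44, whose product has an RNase III-like fold, had 0.82, 1.32 and 0.69 in MPPs and 0.08, 3.41 and 3.57 in HSCs, with WT signal above background on 1 of 3 HSC arrays. Mrps30 had 0.18, 0.25 and 0.13 in MPPs and 0.40, 1.93 and 0.78 in HSCs. HSC replicate 1 was low next to the other HSC arrays in Mrps36 and Mrpl44, and HSC replicate 2 was high in Mrps30. No member was below 0 on all 6 arrays (3.3% of all features).

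Mrpl11, the counterpart of bacterial L11 at the base of the ribosomal stalk, had ratios of 1.66, 1.13 and 2.88 in HSCs, all above 0, while in MPPs they were 0.24, 0.96 and -1.24. On the low side in HSCs were Mrps33 (-0.28, -1.39 and -0.52), Mrpl4 (-0.14, -0.62 and -1.60), Mrpl14 (-0.34, -0.12 and -2.78) and Mrps26 (-0.58, -0.08 and -1.60). Mrpl36, taken up again below, was low and more even in HSCs (-1.11, -1.42 and -1.69). For Mrpl14 and the brighter Mrpl4 probe the low mean rests largely on HSC replicate 3. The other Mrpl4 probe was low on all 3 HSC arrays (-1.07, -1.22 and -2.40). The other probe of Mrps33 had 0.29, -3.53 and 0.29 in HSCs, so its low mean rests on HSC replicate 2. The other probe of Mrps26 had a mean of 1.11 in HSCs, so the direction of Mrps26 depends on the probe.

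In MPPs Mrpl23, whose bacterial counterpart L23 stands at the tunnel exit, had ratios of 1.33, 0.46 and 2.39, and Mrpl28 had 0.85, 1.54 and 0.04. Mrpl24 had -0.55, -1.56 and -0.94. Mrpl43 had -1.47, -3.77 and -0.87, and its other probe a mean of -2.24. Mrpl27 had -0.12, -1.44 and -1.13 and Mrpl49 had -0.52, -1.26 and -0.61, but their other probes had means of -0.11 and -0.0027. On their brightest probes these members keep 1 sign over the MPP arrays and range widely in size. The other probes of Mrpl27 (-0.65, -0.14 and 0.45) and Mrpl49 (0.15, 0.45 and -0.61) had both signs.

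The KO effect in MPPs minus that in HSCs was above 0 for 30 of 76 members, against 50.8% of all features, with a median of -0.35. MPP and HSC ratios were apart for 2 members with MPPs higher (3.81% of all features) and 5 with MPPs lower (4.29%). Mrpl36, the counterpart of bacterial L36, had 0.70, 3.66 and -1.06 in MPPs and -1.11, -1.42 and -1.69 in HSCs. Its lowest MPP ratio (-1.06) and highest HSC ratio (-1.11) nearly met. The ratio of 3.66 goes with a low WT level of 6.14 in MPP replicate 2. Signal of Mrpl36 was well above background on 2 of 3 arrays in WT MPPs and in KO HSCs. Mrpl17 had 1.33, 0.47 and 0.96 in MPPs and 0.23, -0.43 and -2.38 in HSCs.

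Mrps5, the counterpart of bacterial S5, had -0.07, -1.22 and -0.71 in MPPs and -0.04, 2.35 and 2.57 in HSCs, where replicate 1 was near the MPP values. Mrpl32, the counterpart of bacterial L32, had 0.19, -0.77 and -0.48 in MPPs and 0.60, 2.27 and 0.66 in HSCs. The median ratio of the 7 B lineage markers was 2.42, 4.90 and 4.50 in MPPs and 0.11, -0.11 and -0.30 in HSCs, and its part in the members' ratios was not tested.

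**Figure D5:**
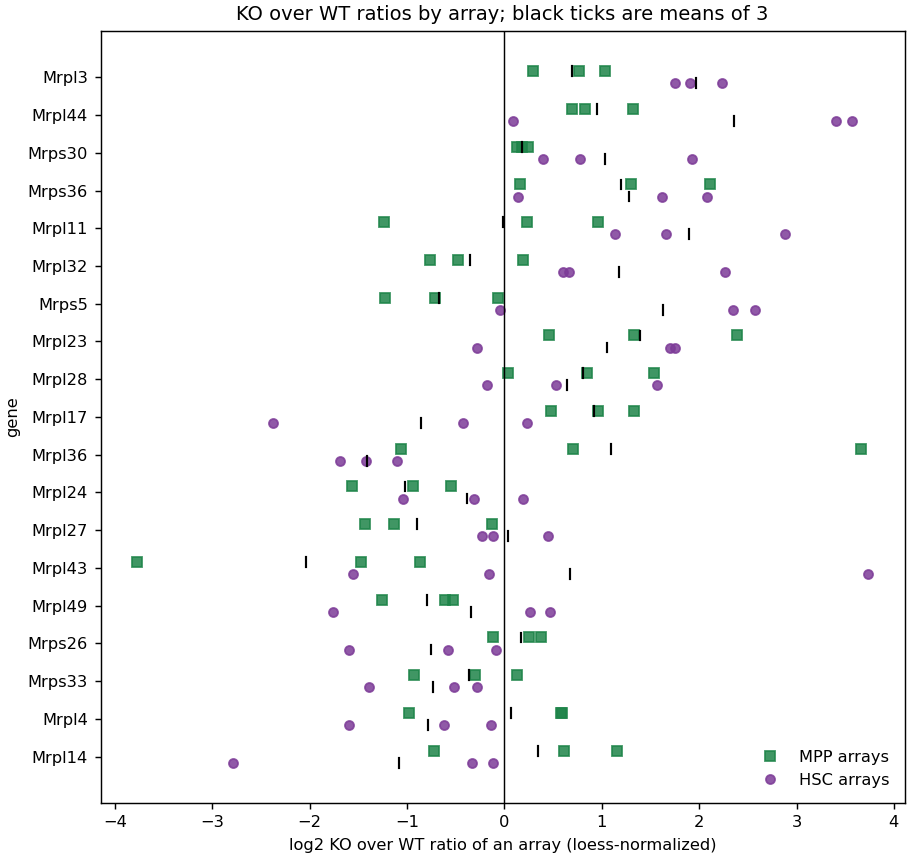
Log2 KO over WT ratio of each array for 19 members, with MPP arrays as green squares and HSC arrays as purple circles, the MPP row above the HSC row of each gene and means as black ticks. Mrpl3, Mrpl44, Mrps30 and Mrps36 are above 0 on all 6 arrays, and Mrpl3 has its HSC ratios (1.76 to 2.24) close together.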

How the data were processed

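Each array held a Bmi1 KO sample (Cy5) and a WT sample (Cy3) of 1 population, with 3 MPP and 3 HSC arrays on 1 slide. Per the file headers, the authors' files hold the intensity of each spot and of its local background, read with Agilent Feature Extraction 10.7.3.1, although 8.5.1.1 is the version in the submitters' processing notes. The deposited log ratio is a log10 of processed Cy5 over processed Cy3, and the deposited marks are 0 or 1 scores for spots above background, saturated or outlying. The deposited value table is identical to the scanner's log10 ratios, with a median of 0 in each of its 6 columns. Probe positions are those of the files (mm9).

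Here, intensities were background-corrected with normexp and an offset of 50 in limma 3.58.1 under R 4.3.3, and ratios were turned to log2 and loess-normalized within arrays. Control spots and marked spots had weight 0, and marked spots were left out. Levels were quantile-normalized within each dye. Probes were kept if some group had them well above background on each of its 3 arrays and all 6 arrays gave a value, which left 44641 of 55681 probes. The brightest probe stood for a name, which gave 29134 features. Of the names, 2836 were updated through RefSeq accessions. limma's moderated test was fitted over all features, two-sided, with Benjamini-Hochberg adjustment over each of 6 comparisons, and its code was tested on simulated data. The number of arrays limits the precision, and p-values measure the spread between these samples only.

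Members, gene lists and tests were chosen with earlier results of these data known. The named genes are Mrpl3, members that passed the test, and in each comparison up to 4 members per direction with the smallest p among those whose arrays pointed 1 way or whose groups did not overlap. Mrps18c, Mrps22 and Mrps25 were named after their values were seen, for their lack of overlap in both genotypes or their passing the filter through MPPs alone, and Mrpl48 and Mrps10 because only 4 members were lower in both. Alternatives were the scanner's own log ratio or processed signal, median centring or scaling, no filter on dim probes, the mean of a gene's probes, marked spots kept, each array left out, the slide row as a term and the replicate number as a block.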

Additional observations from a re-analysis of the deposited data

How the results depend on the processing

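The members' median difference between MPPs and HSCs stayed above 0 under all 13 alternatives, from 0.42 to 0.72 in KO samples and from 0.55 to 1.17 in WT samples. No member passed the test in WT samples under any of them, and in KO samples 0 to 1 did when single arrays were left out (Mrpl17, without HSC replicate 1). Median centring gave member medians of 0.73 for KO over WT in HSCs, 0.34 in MPPs and 0.44 for the mean of both. It called 303 features for the mean effect, against 0 under loess, and 1 member, Mrpl3, whose ratios were known when the genes were chosen, so its call supports nothing. It shifts all ratios up, by 0.28 in the median of all features for that mean, and the cause of the calls was not tested. Calls between MPPs and HSCs over all features were fewer under several settings. In WT samples 122 features passed, 51 without the filter on dim probes, 0 to 121 with 1 array left out, 0 with the slide row as a term and 0 with the replicate block. In KO samples 153 passed, 58 to 155 with 1 array left out, 16 with the slide row and 37 with the replicate block. Of 494 values for single members, 2 turned sign: Mrps26 in HSCs, at 0.18 with the mean of its probes (-0.75 on the brighter probe), and Mrpl3 between KO MPPs and KO HSCs, at 0.05 with the slide row (-0.57 without). Whether replicate numbers pair the samples is not settled, and the main fit left them unpaired. Deviations of same-numbered HSC and MPP ratios correlated at -0.066, 0.009 and 0.015 (Pearson's r over features). Those of KO levels correlated at 0.038, 0.095 and 0.003, and those of WT levels at 0.156, 0.037 and 0.129. Pairs of unlike number gave -0.052 to 0.045 for ratios, -0.104 to 0.08 for KO levels and -0.168 to 0.038 for WT levels. Mrpl3, Mrpl44 and other members below background on some WT arrays had larger ratios in HSCs by the scanner's own log ratio: 4.69 for Mrpl3, against 1.97, and 4.83 for Mrpl44, against 2.35. The calls of Chchd1 (KO) and Polg2 (WT) were also lost with the slide row (adjusted p = 0.598 and 0.368), the replicate block (0.161 and 0.159) and the scanner's signal (0.0601 and 0.125), and that of Polg2 without the filter (0.0554) and with the mean of its probes (0.0726).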
